A study of Homo sapiens with 6 samples.

Results

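Amino acid transporters are described here by 10 genes in A431 cells, a human squamous carcinoma line, with and without an shRNA against the chromatin remodelling subunit gene ARID1A. The genes are SLC7A11, SLC3A2, SLC7A5, SLC7A6, SLC7A1, SLC1A4, SLC1A5, SLC38A1, SLC38A2 and SLC6A9. They were chosen by name, with earlier results of these data known. Each symbol was found once among the 19421 genes of the expression table that share 1 scale. The 10 genes passed the minimum for testing, an average of 1 FPKM or more across the 6 samples, as 11599 of the 19421 genes did. FPKM is a gene's read count divided by gene length and by the reads assigned in the sample, so levels can be set side by side between genes.

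RNA sequencing covered 6 samples of A431 cells grown in DMEM with serum, and their titles name 3 shCONTROL and 3 shARID1A samples, numbered 1 to 3 in each group. The groups share the cell line and the medium and differ in the shRNA. How many different ARID1A shRNAs were used, whether cells were selected or cloned, and the time after shRNA delivery are not stated in the sources used here. Nothing says that the samples of a group came from separate cultures, so the p-values measure spread among these samples alone, and that spread may be technical.

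Cells take up amino acids through families of membrane proteins, each with its own range of substrates and driving ions. Several of them work as heterodimers in which a light chain that carries the amino acid is brought to the cell surface by the heavy chain CD98, encoded by SLC3A2. Carcinoma cells commonly use these routes for leucine, glutamine and cystine, and transcription of several of the genes is known to respond to ATF4, the effector of the amino acid stress response, or, for SLC7A11, also to NRF2, the regulator of antioxidant genes.

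The samples held 31658040 to 36453744 assigned reads. ARID1A itself, the gene targeted, had 23.1 ± 0.602 FPKM in shCONTROL and 7.21 ± 0.465 FPKM in shARID1A (SD, n = 3 each), a log2 fold change of -1.55 (SE 0.0940; limma with Benjamini-Hochberg adjustment, adjusted p = 0.000187). A principal component analysis separated the groups on its first axis, while its second, with 25.0% of the variance, set shARID1A replicate 3 apart. Of 10 squamous epithelial markers, 9 passed the minimum, and KRT14 was at 0.0706 to 0.847 FPKM. Their summed level was 2283 to 2644 FPKM in shCONTROL and 1691 to 2418 FPKM in shARID1A, and 4 of the 9 (KRT5, TP63, DSP and JUP) were called lower, where 10.9% of all genes tested were. The calls held in 16 of 16 alternatives for DSP and JUP, in 12 for KRT5 and in 13 for TP63. EGFR, KRT17 and EPCAM had positive log2 fold changes (0.22, 0.11 and 0.01) that did not pass. The summed level of 7 fibroblast markers was 6.56 to 8.96 FPKM in shCONTROL and 10.3 to 12.5 FPKM in shARID1A, and 2 of the 7 passed the minimum. The matrix gene LUM rose from 4.64 ± 1.16 to 8.77 ± 1.297 FPKM (limma, adjusted p = 0.0156), a call lost without shCONTROL replicate 1 or 2 or shARID1A replicate 1 (0.0665, 0.0754 and 0.0611). COL1A1 was at 2.78 ± 0.368 and 2.43 ± 0.240 FPKM, with a log2 fold change of -0.14 that did not pass. PDGFRA and DCN were at 0 in every shCONTROL sample. The 3 endothelial and 3 blood markers analysed summed to at most 0.131 and 0.406 FPKM. The part of these marker levels in the transporter results was not tested. In bulk samples, fewer cells of a kind and less RNA per cell cannot be told apart.

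The transporter genes were lower in shARID1A for 9 of 10, where 7181 of the 11599 genes tested had a negative log2 fold change. Of the 10 genes, 3 fell beyond the threshold of an adjusted p of 0.05. The 3 that fell were SLC7A11, the cystine and glutamate exchanger, SLC6A9, a glycine transporter, and SLC3A2, the heavy chain. None of the 10 rose in limma, at an unadjusted p of 0.05 or with voom on recovered reads, which called the same number lower (3). Over all genes tested, 16.8% were called, 10.9% as lower and 5.85% as higher. The median log2 fold change of the 10 genes was -0.42, beside -0.08 over all genes tested. The 3 samples of a group did not overlap those of the other for 5 of the 10 genes, each lower in shARID1A, where 38.8% of all genes tested did not overlap, 25.4% lower and 13.4% higher. By the size of their decrease in log2(FPKM + 1) among the 11599 genes, SLC7A11 ranked 55, SLC6A9 84 and SLC3A2 691. The order of the first pair depends on the scale, since SLC6A9 had the larger decrease with a pseudocount of 0.1 FPKM (-1.44 against -1.36) and with voom (-1.47 against -1.36).

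Samples with equal replicate numbers had positively correlated deviations from their group means, so the replicate number was also fitted as a block. The labels state no such pairing. It was read from these same expression values, which cannot establish it, so calls with the block rest on an assumed pairing. With that block 8 of the 10 genes were called lower, the 2 others being SLC38A1 and SLC7A6, and none was called higher. The block raised the share called over all genes to 23.6%, with 15.5% lower and 8.12% higher. In 8 of the 10 genes each shARID1A sample was below the shCONTROL sample of its own number in all 3 pairs. SLC7A6 was above it in all 3 pairs, and SLC38A1 was below it in 2 of 3. The share of all genes tested that were lower in all 3 pairs was not taken, so these counts have no background beside them.

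**Figure D1:**
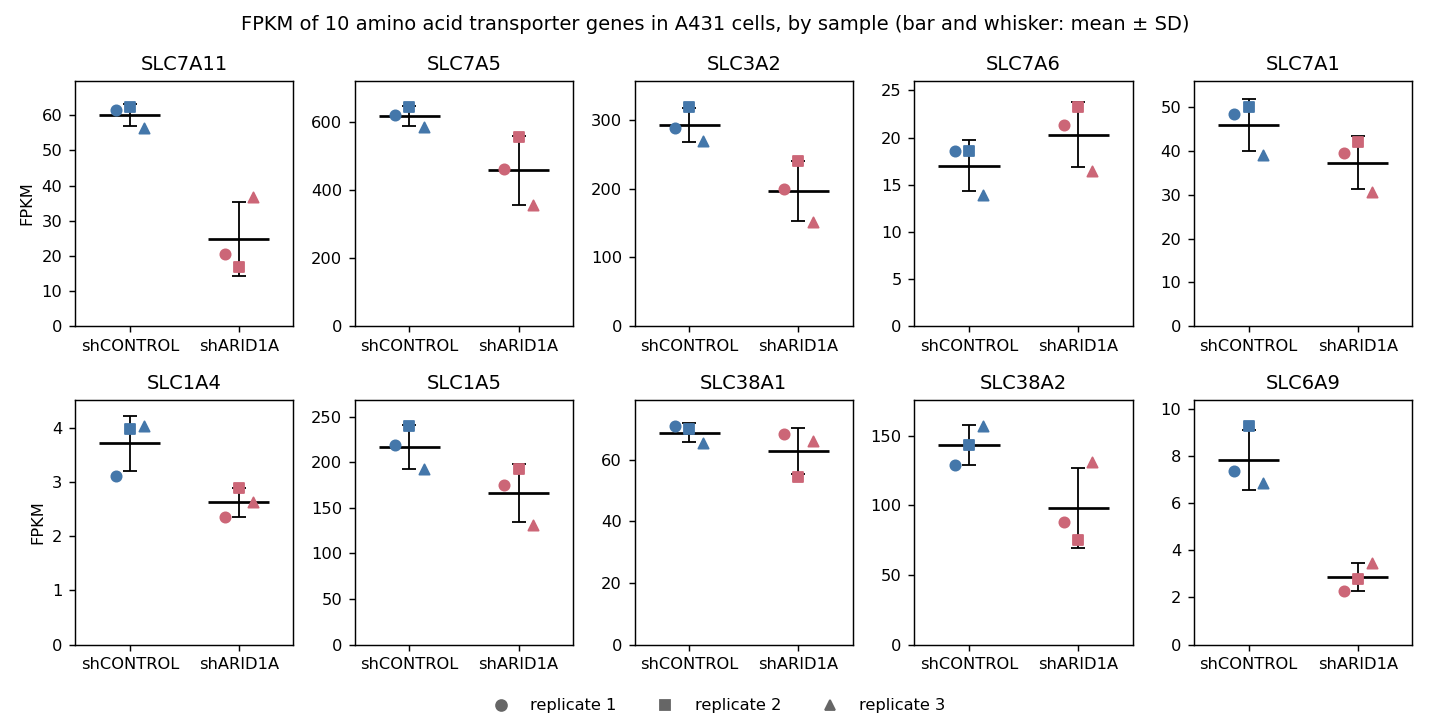
FPKM (y axis, from 0 in each panel) of the 10 transporter genes in the shCONTROL (blue) and shARID1A (red) samples, with the replicate number as the marker shape and the mean ± SD as bar and whisker. SLC7A11 and SLC6A9 show the widest gaps between the groups, while the points of SLC7A6, SLC7A1, SLC1A5, SLC38A1 and SLC38A2 overlap.

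SLC7A11 (NCBI gene ID 23657) encodes xCT, the light chain that exchanges extracellular cystine for intracellular glutamate and supplies cysteine for glutathione. Its level was 61.6, 62.3 and 56.5 FPKM in shCONTROL replicates 1 to 3, and 20.5, 16.9 and 36.6 FPKM in shARID1A replicates 1 to 3. Every shARID1A sample was below every shCONTROL sample, and shARID1A replicate 3 lay nearest to the controls, at 60.9% of the shCONTROL mean, where replicates 1 and 2 were at 34.0% and 28.1%. The mean fell by 59.0%, from 60.1 ± 3.18 to 24.7 ± 10.5 FPKM, a log2 fold change of -1.33 (SE 0.238, 95% interval -1.87 to -0.78; limma, adjusted p = 0.00904). Leaving out 1 sample at a time gave log2 fold changes between -1.64 and -1.10, and the call held in 16 of 16 alternative fits. The exons of SLC7A11 overlap those of the opposite-strand RNA gene SLC7A11-AS1 in the GENCODE 29 annotation, and without strand information the reads of both cannot be told apart where they overlap. SLC7A11-AS1, with a mean below the minimum and therefore untested, was at 1.05, 1.24 and 1.51 FPKM in shCONTROL and at 0.265, 0.290 and 0.893 FPKM in shARID1A.

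SLC3A2 (gene ID 6520) encodes the CD98 heavy chain, the shared partner of SLC7A11, SLC7A5 and SLC7A6. It stood at 288, 318 and 270 FPKM in shCONTROL and at 199, 240 and 152 FPKM in shARID1A. The groups did not overlap, and replicate 2 was the highest and replicate 3 the lowest in both. The mean fell by 32.6%, from 292 ± 24.5 to 197 ± 43.9 FPKM, with a log2 fold change of -0.59 (SE 0.157, 95% interval -0.95 to -0.23; limma, adjusted p = 0.0380, and 0.00782 with the replicate block). The call was lost with no filter on low values (adjusted p = 0.0908) and when shCONTROL replicate 1, 2 or 3 or shARID1A replicate 1 was left out (0.107, 0.145, 0.0690 and 0.0985), while the log2 fold change stayed between -0.64 and -0.52 in these fits.

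SLC7A5 (gene ID 8140) encodes LAT1, which brings in leucine and other large neutral amino acids, and it had the highest level of the 10 genes in both groups. Its values were 622, 644 and 587 FPKM in shCONTROL, and 462, 557 and 356 FPKM in shARID1A. The groups did not overlap, and replicate 2 was again the highest and replicate 3 the lowest in each. The means were 618 ± 29.1 and 458 ± 101 FPKM, with a log2 fold change of -0.45 (SE 0.150, 95% interval -0.80 to -0.11) that did not pass the test (limma, adjusted p = 0.0736) and passed with the replicate block (adjusted p = 0.0264), with quantile normalization (0.0364) and without shARID1A replicate 2 (0.0200). Leaving out shARID1A replicate 3 gave -0.28 (adjusted p = 0.0580). SLC7A5P1 and SLC7A5P2, pseudogenes that can share reads with it, were at 4.14 FPKM or less in every sample. An antisense gene, AC126696.2, also overlaps its exons.

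SLC7A6 (gene ID 9057) encodes y+LAT2, a light chain that exchanges cationic for neutral amino acids. Its level was 18.5, 18.6 and 13.9 FPKM in shCONTROL and 21.3, 23.2 and 16.5 FPKM in shARID1A. The groups overlapped, since shARID1A replicate 3 lay below shCONTROL replicates 1 and 2. The log2 fold change was 0.24 (SE 0.157, 95% interval -0.12 to 0.60; limma, adjusted p = 0.314, and 0.0900 with the replicate block), an interval that includes 0. The interval excludes the estimate for SLC7A5 (-0.45) but overlaps the SLC7A5 interval of -0.80 to -0.11. The log2 fold change was 0.11 without shCONTROL replicate 3, 0.14 without shARID1A replicate 2 and 0.38 without shARID1A replicate 3, and passed in none of these. On the scale of log2(FPKM + 1), SLC7A5 exceeded SLC7A6 by 5.11 ± 0.165 in shCONTROL and by 4.42 ± 0.0939 in shARID1A. These ratios did not overlap and were lower in all 3 same-numbered pairs, and their difference of -0.69 had p = 0.1 in an exact two-sided permutation test, the smallest that 3 against 3 samples allow, and 0.4 after adjustment over the 4 gene pairs compared. The exact tests of gene pairs take no account of the replicate numbers, since a paired exact test over 3 pairs cannot go below 0.25. Exons of SLC7A6 overlap SLC7A6OS on the opposite strand, which had at most 5.88 FPKM.

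The ratio of light to heavy chain transcripts was also taken. The summed FPKM of the 5 light chain genes SLC7A5, SLC7A6, SLC7A7, SLC7A8 and SLC7A11 over that of SLC3A2 was 2.45, 2.29 and 2.47 in shCONTROL and 2.54, 2.50 and 2.70 in shARID1A. The light chain sum was 665 to 729 FPKM in shCONTROL and 410 to 599 FPKM in shARID1A. Both this sum and the heavy chain were lower in every shARID1A sample than in any control. Their ratio was higher by a narrow margin, 2.50 against 2.47 at the nearest, and was not tested. SLC7A5 made up most of the light chain sum in each sample. The log2 ratio of SLC7A11 to SLC3A2 was -2.21, -2.33 and -2.24 in shCONTROL, and -3.22, -3.75 and -2.02 in shARID1A. The ratio was lower in shARID1A replicates 1 and 2 and higher in replicate 3 than in any control, and the difference of -0.74 had p = 0.4 in the exact two-sided permutation test (0.533 adjusted over 4 pairs). It was -0.36 without shARID1A replicate 2 and -1.23 without shARID1A replicate 3.

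SLC7A1 (gene ID 6541) encodes CAT1, the main carrier of arginine and lysine into many cells, which works without a heavy chain. It was at 48.6, 50.01 and 39.1 FPKM in shCONTROL and at 39.5, 42.1 and 30.5 FPKM in shARID1A. The groups overlapped through shCONTROL replicate 3, while the 3 same-numbered pairs differed by -0.29, -0.24 and -0.34 on the log2 scale. The log2 fold change of -0.29 (SE 0.144, 95% interval -0.62 to 0.04) did not pass the test (limma, adjusted p = 0.191) and passed with the replicate block (adjusted p = 0.0430). It was -0.16 without shARID1A replicate 3.

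SLC1A5 (gene ID 6510) encodes ASCT2, a sodium-dependent exchanger of glutamine and other neutral amino acids, and SLC1A4 (gene ID 6509) encodes ASCT1, its relative that carries alanine, serine and cysteine. SLC1A5 was at 219, 240 and 192 FPKM in shCONTROL and at 175, 193 and 132 FPKM in shARID1A, and the groups overlapped because shARID1A replicate 2 lay above shCONTROL replicate 3. Its log2 fold change was -0.39 (SE 0.149, 95% interval -0.73 to -0.05; limma, adjusted p = 0.104, and 0.0195 with the replicate block), and it was -0.24 without shARID1A replicate 3. SLC1A4, with the lowest level of the 10 genes, was at 3.13, 3.99 and 4.05 FPKM in shCONTROL and at 2.37, 2.90 and 2.64 FPKM in shARID1A.

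The SLC1A4 groups did not overlap, though they lay close, at 2.90 against 3.13 FPKM. Its log2 fold change was -0.37 (SE 0.127, 95% interval -0.66 to -0.08; limma, adjusted p = 0.0786, and 0.0467 with the replicate block), on a scale that understates changes at such low levels. It was -0.19 with a pseudocount of 5 FPKM and -0.20 with quantile normalization. The log2 ratio of SLC1A4 to SLC1A5 differed by 0.02 between the groups, a difference that turned negative, to -0.0813, with a pseudocount of 0.1 FPKM and in 3 of the 6 fits that each left out 1 sample (exact two-sided permutation p = 0.9, 0.9 adjusted over 4 pairs).

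SLC38A2 (gene ID 54407) encodes SNAT2, a sodium-coupled carrier of alanine, glutamine and other small neutral amino acids whose transcript is known to rise when amino acids are scarce. Its values were 129, 144 and 157 FPKM in shCONTROL and 88.2, 75.3 and 131 FPKM in shARID1A. The shARID1A replicates 1 and 2 lay below all controls, and replicate 3 lay inside their range. The log2 fold change was -0.58 (SE 0.187, 95% interval -1.003 to -0.15; limma, adjusted p = 0.0677), and it passed with the replicate block (adjusted p = 0.0176) and when shARID1A replicate 3 was left out (adjusted p = 0.00228).

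SLC38A1 (gene ID 81539) encodes SNAT1, the closest relative of SNAT2 in substrate range. It was at 71.1, 70.1 and 65.5 FPKM in shCONTROL and at 68.3, 54.3 and 66.1 FPKM in shARID1A. The low value came from shARID1A replicate 2, and the other 2 lay within the control range. Its log2 fold change was -0.13 (SE 0.106, 95% interval -0.38 to 0.11; limma, adjusted p = 0.407), and it passed in none of its 16 alternative fits. It was -0.03 without shARID1A replicate 2. The interval includes both no change and a decrease as large as that of SLC7A1. The log2 ratio of SLC38A1 to SLC38A2 was higher by 0.49, 0.56 and 0.28 in shARID1A in same-numbered pairs 1 to 3. The mean difference was 0.44, with overlapping groups (exact two-sided permutation p = 0.2, 0.4 adjusted over 4 pairs).

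SLC6A9 (gene ID 6536) encodes GLYT1, a sodium- and chloride-dependent glycine transporter. Its level was 7.37, 9.29 and 6.86 FPKM in shCONTROL and 2.29, 2.79 and 3.48 FPKM in shARID1A. The groups did not overlap, with 3.48 FPKM as the highest shARID1A value against 6.86 FPKM as the lowest control. The mean fell by 63.6%, from 7.84 ± 1.28 to 2.85 ± 0.598 FPKM, with a log2 fold change of -1.20 (SE 0.155, 95% interval -1.55 to -0.85; limma, adjusted p = 0.00264). The call held in 16 of 16 alternative fits, on 308 to 1185 reads per sample, with a log2 fold change of -0.71 at a pseudocount of 5 FPKM. Exons of SLC6A9 overlap those of CCDC24 on the opposite strand.

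**Figure D2:**
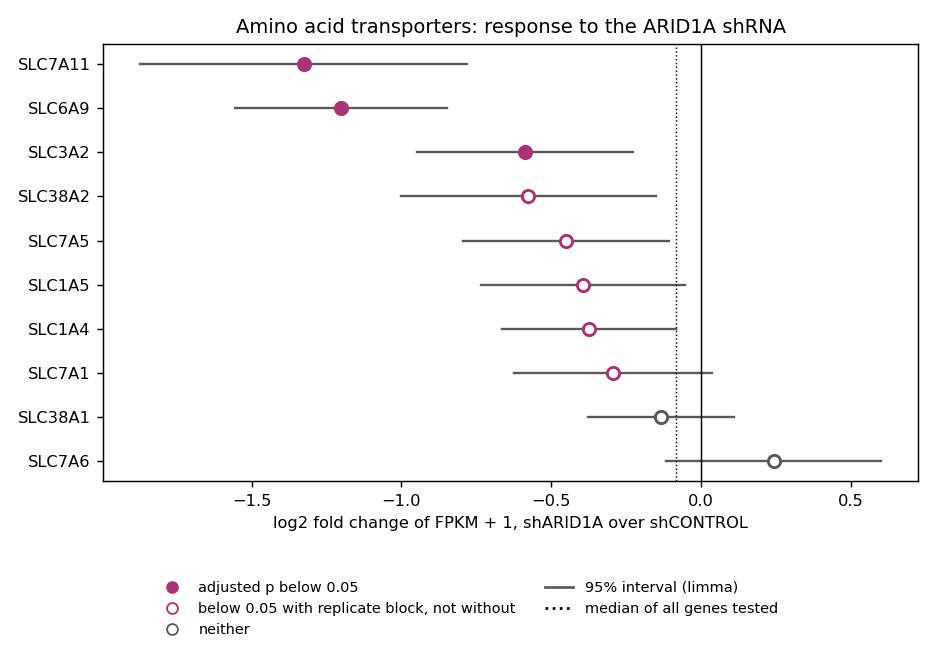
Log2 fold change of FPKM + 1 (x axis, shARID1A over shCONTROL) of the 10 transporter genes with its 95% limma interval, ordered by size, with the median of all genes tested (-0.08) as a dotted line. Filled points (SLC7A11, SLC6A9 and SLC3A2) passed an adjusted p of 0.05, open coloured points passed with the replicate block and not without, and open grey points (SLC38A1 and SLC7A6) passed in neither fit.

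The shARID1A samples did not respond in the same order for every gene. For SLC7A5, SLC3A2, SLC7A6, SLC7A1 and SLC1A5, replicate 2 was the highest and replicate 3 the lowest in both groups. For SLC7A11, SLC38A2 and SLC6A9, shARID1A replicate 3 was instead the highest of its group. Relative to the shCONTROL mean, shARID1A replicate 3 was at 52.0% for SLC3A2 and 57.6% for SLC7A5, the lowest of the 3, and at 91.3% for SLC38A2 and 44.4% for SLC6A9, the highest. Replicate 2 showed the opposite for these genes except SLC6A9, with 82.1% for SLC3A2, 90.2% for SLC7A5 and 52.6% for SLC38A2. The replicate that stood apart on the second principal component is thus the one with the smallest decrease of SLC7A11 and the largest decrease of its heavy chain.

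**Figure D3:**
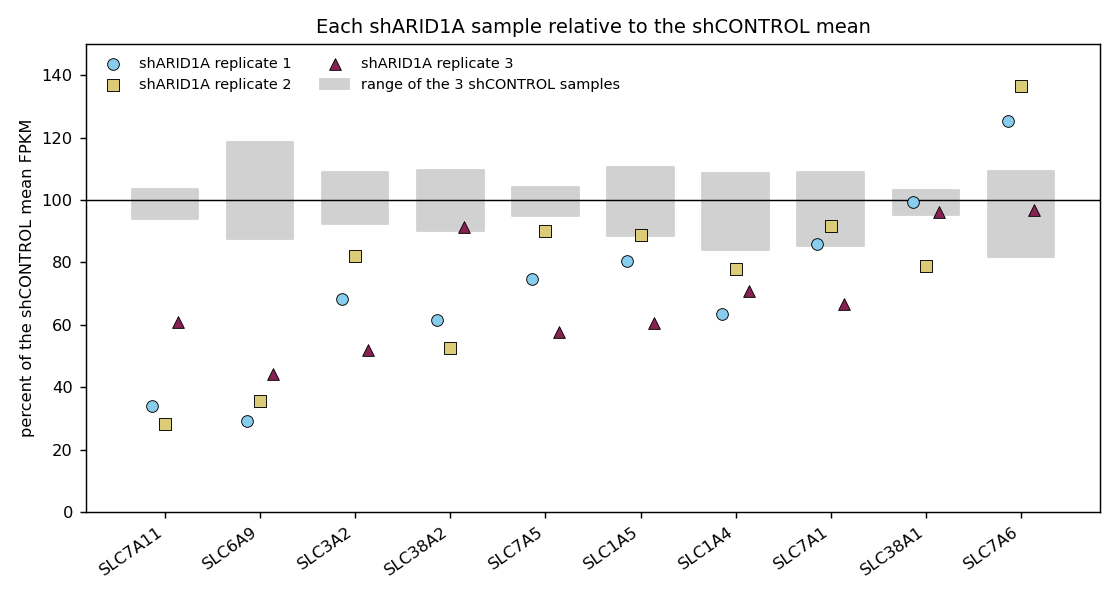
FPKM of each shARID1A sample as a percent of the shCONTROL mean (y axis) for the 10 transporter genes, with the range of the 3 shCONTROL samples as a grey bar. Replicate 3 (triangles) is the highest shARID1A sample for SLC7A11, SLC6A9 and SLC38A2 and the lowest for SLC3A2, SLC7A5, SLC1A5, SLC7A1 and SLC7A6.

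The order of transcript levels in shCONTROL was SLC7A5, SLC3A2, SLC1A5, SLC38A2, SLC38A1, SLC7A11, SLC7A1, SLC7A6, SLC6A9 and SLC1A4, from high to low, and no neighbours in this order had overlapping samples. In shARID1A the order was the same except that SLC7A11 stood below SLC7A1. There the samples of SLC7A11 overlapped those of both SLC7A1 and SLC7A6, and overlaps were also seen between SLC3A2 and SLC1A5 and between SLC6A9 and SLC1A4. The summed level of the 10 genes was 1473 ± 84.7 FPKM in shCONTROL and 1070 ± 140 FPKM in shARID1A. SLC7A5 made up 41.9% of this sum in shCONTROL and 42.5% in shARID1A, while SLC7A11 made up 4.08% and 2.42%, as means. By sample, SLC7A11 was at 4.19, 3.99 and 4.06% in shCONTROL and at 1.90, 1.40 and 3.95% in shARID1A replicates 1 to 3.

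Promoter sequence was searched for the known DNA elements through which ATF4 and NRF2 act. Several of the 10 genes are known to respond to these factors, so matches may follow from how the genes were chosen. A negative fold was seen for 9 of the 10 genes and for 7181 of the 11599 genes tested. Whether either factor had a part in the decreases was not tested. RefSeq windows from 250 bases before to 50 bases after each annotated start (GRCh38.p14) were read for 9 of the 10 genes, 15 windows in all. The table has no entry for SLC7A11. The letters TGATGNAAN, the core of the C/EBP-ATF response element, were found on either strand in 5 of the 15 windows, 1 for each of 5 genes, where 3.61% of all 35116 windows hold them. The matches are shown 5′ to 3′ on the strand of the gene with the 9 matched bases in capitals. In SLC1A4 and SLC3A2 the letters lie on the opposite strand and are printed as their reverse complement.
SLC1A4: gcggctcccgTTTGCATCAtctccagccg
SLC3A2: taatgtgcaggactcCTTACATCAgctcc
SLC38A1: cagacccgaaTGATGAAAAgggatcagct
SLC7A1: ggcgcactgcTGATGAAACctggcgccgg
SLC1A5: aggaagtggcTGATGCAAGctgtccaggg

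These stretches lie at chr2:64989381-64989409 (+), chr11:62881720-62881748 (+), chr12:46266502-46266530 (-), chr13:29595663-29595691 (-) and chr19:46784893-46784921 (-), in that order. Counting the start as base 1, the first matched base was at -8, 37, -4, 8 and -97. The 5 genes with a match include SLC3A2, which fell, 3 that passed with the replicate block, and SLC38A1, which passed in neither fit. SLC6A9, which fell, held no match. A match describes letters in the window and is not a site of binding.

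The letters TGACNNNGC, the core of the antioxidant response element, were found in windows of SLC3A2, SLC7A1, SLC7A5, SLC7A6 and SLC1A5, 5 of 15 windows, where 13.3% of all windows hold them. No match of these letters overlapped one of the first. The stretches of the CD98 heavy chain and of its most abundant light chain are shown, with the matched bases in capitals.
SLC3A2: cgagggtgggTGACTCAGCgtcctccttc
SLC7A5: gcggggttccTGACGCAGCtgcgggcggc

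They lie at chr11:62881652-62881680 (+), with the first matched base at -37 in SLC3A2, and at chr16:87869491-87869519 (-), with it at -2 in SLC7A5. SLC7A6, which passed in neither fit, held 2 matches of these letters.

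Beyond the 10 genes, 54 other amino acid transporters were listed, of which 41 were analysed and 24 passed the minimum. Of the 24, 2 rose and 3 fell, shares read beside the 5.85% and 10.9% over all genes, and their median log2 fold change was -0.11. With the replicate block 3 rose and 5 fell, SLC1A3 joining the first and SLC43A2 and SLC38A6 the second. Over all genes tested, 8.12% were called higher and 15.5% lower with that block. At a pseudocount of 5 FPKM the log2 fold changes of the low genes SLC7A2, SLC7A8 and SLC6A15 were 0.57, -0.66 and -0.27, still past the threshold. By place, 1 rose and 2 fell of 7 at the plasma membrane, none rose and 1 fell of 8 in lysosomes or other endomembranes, and 1 rose and none fell of 9 in mitochondria. The counts of none were the same at an unadjusted p of 0.05 in limma and with voom.

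SLC7A2 encodes CAT2, the relative of SLC7A1 that also carries cationic amino acids. It was at 5.45, 5.43 and 4.02 FPKM in shCONTROL and at 11.3, 9.59 and 8.51 FPKM in shARID1A, every one of these above every control. It rose with a log2 fold change of 0.86 (SE 0.145; limma, adjusted p = 0.00711), a call that held in 16 of 16 alternative fits. SLC7A2 made up 9.33 to 10.1% of the summed FPKM of SLC7A1 and SLC7A2 in shCONTROL and 18.6 to 22.2% in shARID1A, and this sum was 43.1 to 55.4 FPKM and 39.0 to 51.7 FPKM. SFXN1, which carries serine into mitochondria, was at 42.3, 42.3 and 40.6 FPKM in shCONTROL and at 60.9, 57.3 and 62.8 FPKM in shARID1A, without overlap. It rose with a log2 fold change of 0.52 (SE 0.0825; limma, adjusted p = 0.00546), again in 16 of 16 alternatives.

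SLC7A8 encodes LAT2, another CD98 light chain for neutral amino acids. It was at 4.08, 3.93 and 7.88 FPKM in shCONTROL and at 1.77, 1.61 and 0.921 FPKM in shARID1A. The groups did not overlap, and replicate 3 held both the highest control and the lowest shARID1A value. It fell with a log2 fold change of -1.33 (SE 0.243; limma, adjusted p = 0.00960), in 15 of 15 alternatives. SLC38A7, an exporter of glutamine and asparagine from lysosomes, averaged 9.62 ± 1.40 FPKM in shCONTROL and 5.83 ± 0.738 FPKM in shARID1A. It fell by 0.63 on the log2 scale (adjusted p = 0.0179 in limma), a call lost without shCONTROL replicate 1 or 2 or shARID1A replicate 1 (0.0798, 0.0922 and 0.0724). SLC6A15, a sodium-dependent carrier of branched-chain amino acids and proline, averaged 3.61 ± 0.640 and 2.11 ± 0.375 FPKM. It fell by 0.56 (adjusted p = 0.0353 in limma), a call lost with no filter (0.0828), with quantile normalization (0.0922) and without replicate 1 or 2 of either group, where the adjusted p reached 0.136.

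SLC1A3, the glutamate carrier EAAT1, had a positive fold close to that of SLC7A2 and a wider spread. It was at 7.70, 8.33 and 13.9 FPKM in shCONTROL and at 15.2, 15.1 and 24.9 FPKM in shARID1A. Replicate 3 was the highest in both groups, and the groups did not overlap. The log2 fold change was 0.83, with adjusted p = 0.0533 in limma. It passed in 4 of 16 alternatives, with the replicate block (0.00184), voom (0.0383), quantile normalization (0.0405) and without shCONTROL replicate 3 (0.0270).

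**Figure D4:**
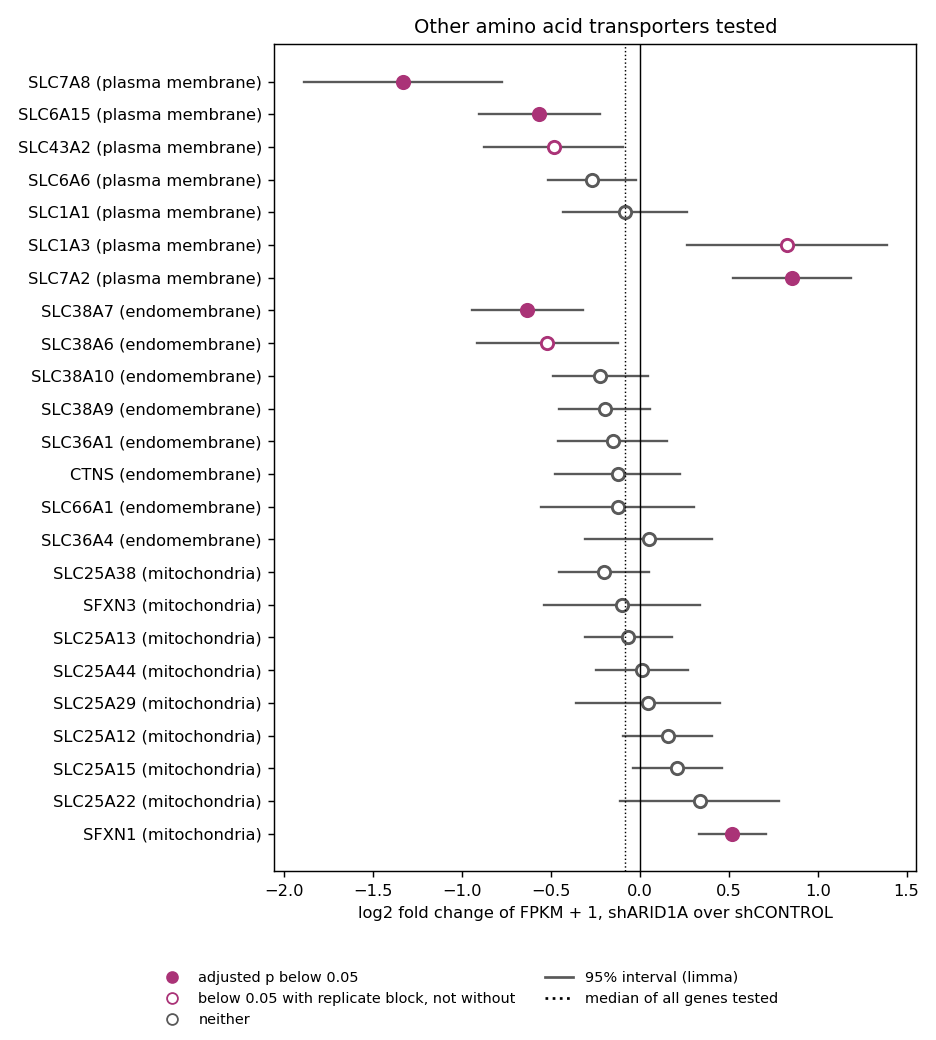
Log2 fold change of FPKM + 1 (x axis, shARID1A over shCONTROL) with its 95% limma interval for the 24 other amino acid transporters tested, grouped by the membrane they sit in, with the median of all genes tested as a dotted line. Filled points (SLC7A8, SLC6A15, SLC7A2, SLC38A7 and SFXN1) passed an adjusted p of 0.05, and open coloured points passed with the replicate block and not without.

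Genes of the 2 pathways named above were read from the same fit. Of 24 listed genes of the ATF4 arm, 21 passed the minimum, and 13 fell and none rose (10.9% and 5.85% over all genes), with a median log2 fold change of -0.62. These calls held in 16 of 16 alternatives except for SESN2 (12), CEBPB (11), GARS1 (7) and EPRS1 (7). ASNS, the asparagine synthetase, CHAC1, which degrades glutathione, and the stress factor ATF3 had the smallest p of that list, with log2 fold changes of -1.88, -2.01 and -1.75 (limma, adjusted p = 0.000116, 0.000672 and 0.000323). ATF4 itself was at 281, 281 and 215 FPKM in shCONTROL and at 205, 213 and 190 FPKM in shARID1A. Its groups did not overlap, and its log2 fold change of -0.34 did not pass the test (limma, adjusted p = 0.0850) and passed with the replicate block (0.0346).

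Of 12 NRF2-linked genes, 12 passed the minimum, and 10 fell and none rose (10.9% and 5.85% over all genes), with a median log2 fold change of -0.94. Their calls held in 16 of 16 alternatives except for GSR (15), GCLC (12) and GCLM (6). In both lists none rose at an unadjusted p of 0.05 in limma or with voom, which called 13 and 10 lower. HMOX1, the heme oxygenase, NQO1, a quinone reductase, and OSGIN1, a growth inhibitor induced by oxidative stress, had the smallest p, with log2 fold changes of -2.60, -1.01 and -1.13 (limma, adjusted p = 0.000116, 0.000591 and 0.000872). NFE2L2, which encodes NRF2, was at 54.5 ± 1.34 FPKM in shCONTROL and 44.2 ± 6.53 FPKM in shARID1A, with a log2 fold change of -0.31 that did not pass (limma, adjusted p = 0.0993).

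The genes most like SLC7A11 and SLC7A5 across the 6 samples were found by the root mean square distance between log2(FPKM + 1) values, each centred on its own mean, among 7958 protein-coding genes that averaged 5 FPKM or more. The rule used the same 6 samples, so these values are a description. For SLC7A11 they were PDCD4, an inhibitor of translation, the zinc finger gene ZSCAN31 and the repressor gene HBP1, at distances of 0.0970, 0.126 and 0.152. PDCD4 was at 10.9, 10.9 and 9.54 FPKM in shCONTROL and at 3.01, 1.89 and 5.13 FPKM in shARID1A, with replicate 3 the highest of the latter, as for SLC7A11. For SLC7A5 they were ECH1, an enzyme of fatty acid oxidation, the glutathione transferase GSTT1 and the triglyceride lipase PNPLA2, at 0.0429, 0.0489 and 0.0493. ECH1 was at 85.2, 90.7 and 80.1 FPKM in shCONTROL and at 62.7, 81.9 and 51.1 FPKM in shARID1A, where replicate 3 was the lowest, as for SLC7A5.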

How the data were processed

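RNA sequencing was done on total RNA extracted with TRIzol, per the labels' protocols. HISAT2 2.0.5 and featureCounts 1.5.0-p1 are listed per the submitters' processing notes, while no source used here gives the genome build or the strandedness. The values deposited by the authors are FPKM, in 1 table that also lists gene lengths. Among the first 19421 gene rows, dividing by the step of 1 read gave whole reads for 100% of the values (tolerance 0.01 reads), and hence the assigned reads per sample. The last 393 rows, 363 of which repeat a gene, have another scale and were left out.

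Values were tested as log2(FPKM + 1) with limma 3.58.1 (R 4.3.3; eBayes with a mean-variance trend, two-sided, no covariates) over the 11599 genes that averaged 1 FPKM or more, with Benjamini-Hochberg adjustment and a threshold of 0.05. The script was tested on simulated data. Tables were made with Python 3.11.15, pandas 2.3.3 and numpy 2.4.6, exact tests with scipy 1.17.1 and figures with matplotlib 3.10.9. Gene names came from RefSeq, to which 19344 IDs matched.

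The 10 genes, the other lists, the tests and the alternatives were chosen with earlier results of these data known. Named genes were the 10 transporters, ARID1A, the other transporters past the threshold, the 3 genes of each pathway list with the smallest p with ATF4 and NFE2L2, and the 3 genes nearest to SLC7A11 and to SLC7A5. Genes overlapping the transporters, pseudogenes, marker genes and SLC1A3, SLC43A2 and SLC38A6 were named after their values were seen. So were the pathway genes whose calls did not hold in every alternative.

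Replicates of a group differed by more than counting noise, with a chi-square per degree of freedom of 4.94 to 71.6 between their reads. Deviations from the group means correlated across genes at 0.321, 0.187 and 0.315 for equal replicate numbers and at -0.302 to 0.0859 for different numbers. Deviations cancel out within each group, so positive correlations for equal numbers go with negative ones for different numbers. The contrast is thus partly built in. The pairing rests on this check alone, since the labels state none, and is an assumption. The alternatives were other pseudocounts, filters and scalings, no trend, the replicate block, limma voom on the recovered reads and leaving out each sample.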

Additional observations from a re-analysis of the deposited data

How the results depend on the processing

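Calls for SLC7A11 and SLC6A9 held in each alternative. Over all alternatives, the 10 genes gave 146 results that kept direction and side of the threshold, 8 that came to pass, 5 that no longer passed (each for SLC3A2) and none that reversed. With the replicate block, 8 of the 10 genes were lower where 3 were without it, and 5 other transporters where 3 were. Over all genes tested, the lower share was 15.5% with the block and 10.9% without. The block changed no other call among the 10 genes. Leaving out 1 sample gave 2 to 4 of the 10 genes lower. For the other transporters the lower count was 1 with a minimum mean of 5 FPKM and 1 to 4 without 1 sample. With that minimum 16 of them were tested, and SLC7A8 and SLC6A15 were no longer among these.

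Over all genes, 679 were higher and 1265 lower. The lower count was 820 with a minimum of 5 FPKM, 9.97% of the 8222 genes then tested, where the main fit had 10.9%. It was 831, or 7.16% of 11599, with quantile normalization, which called 947 higher, 53.3% of its calls against 34.9%. Without 1 sample, 231 to 1116 were higher and 356 to 2287 lower, with the fewest without shCONTROL replicate 2 and the most without shARID1A replicate 3. The median log2 fold change of all genes tested, -0.08, became -0.003 with quantile normalization and -0.05 with upper quartile scaling. That of the 10 genes, -0.42, became -0.46 and -0.39. The log2 ratio of SLC1A4 to SLC1A5 differed by 0.02 between the groups, by -0.0813 with a pseudocount of 0.1 FPKM, and by -0.14 to 0.16 without 1 sample. The causes were not tested. With 3 samples a group, the exact tests cannot go below 0.1.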
